A study of Mus musculus with 6 samples.

Results

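The 10 genes of MHC class I antigen presentation followed here in CD24- and CD24+ Mvt1 cells were the heavy chains H2-K1, H2-D1 and H2-T23, the light chain B2m, the peptide transporter subunits Tap1 and Tap2, the loading factor Tapbp, the peptidase Erap1, the transcriptional coactivator Nlrc5 and the T cell ligand Cd274. They were taken by symbol, as deposited gene annotations equal to a member, and their reads were summed per library and scaled to the gene reads of that library. Of the 10 members, 9 carried a deposited annotation under their symbol, among 14769 gene annotations in all. Nlrc5 did not, and its reads were found by sequence.

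Mvt1 cells are an epithelial mammary cancer line from FVB/N mice. The cells were stained for surface CD24, a membrane-anchored glycoprotein, and separated by flow cytometry into CD24- and CD24+ groups. Messenger RNA was then sequenced from 3 plates of adherent cells per group, all grown in DMEM with 10% fetal bovine serum and antibiotics. The comparison addresses which transcripts differ between a CD24+ and a CD24- population of the same line. Both groups come from 1 line, and no separate sorts are described, so the p-values measure the spread between plates. In such bulk samples, fewer cells of a type and less RNA per cell cannot be told apart.

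MHC class I molecules show peptides from inside the cell to cytotoxic T cells. Proteins are cut by the proteasome, whose interferon-inducible form carries the subunits Psmb8, Psmb9 and Psmb10, and the TAP transporter carries the peptides into the endoplasmic reticulum. There Erap1 trims them, and tapasin (Tapbp) and chaperones load them onto a heavy chain paired with beta-2-microglobulin. Nlrc5 switches on many of these genes together, and tumors often evade T cells by reducing them.

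Of the members, 6 lie in the MHC on chromosome 17 (GENCODE M21, GRCm38). In order along it these are Tapbp (chr17:33915899-33929292, plus strand), H2-K1 (chr17:33996017-34000347, minus strand), Tap1 (chr17:34187553-34197225, plus strand), Tap2 (chr17:34203527-34216321, plus strand), H2-D1 (chr17:35262730-35267499, plus strand) and H2-T23 (chr17:36029773-36032855, minus strand). The other 4 lie elsewhere, all on the plus strand: B2m at chr2:122147686-122153083, Nlrc5 at chr8:94434356-94527272, Erap1 at chr13:74639568-74693201 and Cd274 at chr19:29367455-29388095.

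The libraries held 9046025 to 25692147 mapped reads, of which 71.8% to 74.4% fell on gene annotations. Cd24a, the gene of the sorted marker, rose from 10.2 ± 2.79 to 77.2 ± 7.31 CPM, counts scaled to 1000000 gene reads (SD, n = 3), in the direction of the labels. The keratins Krt8 and Krt18 were abundant in both groups and lower in CD24+ cells (log2 fold changes -1.05 and -1.78), whereas the epithelial markers Epcam and Cdh1 were at 3 reads or fewer in every library. Of the 12 epithelial markers, 4 reached a mean of 1 CPM. Krt8, Krt18 and Krt19 (-1.96) were lower, and Cldn3 was higher, from 0.397 ± 0.350 to 2.47 ± 0.763 CPM (log2 fold change 2.47, edgeR adjusted p = 0.00407). The 11 immune markers summed to 47.3 to 81.2 CPM in CD24- and 7.34 to 9.60 CPM in CD24+ libraries. Markers were counted by deposited symbol alone, so reads under no symbol would be missed. Ptprc had 2 reads in all and Cd3e, Ncr1 and Emr1 had none. Of the immune markers, Cd68 and Itgam alone reached a mean of 1 CPM, and both were lower in CD24+ cells, with log2 fold changes of -3.03 and -6.85. The 5 fibroblast markers summed to 7.56 to 14.1 CPM in CD24- and 60.3 to 92.6 CPM in CD24+ libraries, with Pdgfrb, Pdgfra and Dcn higher and Lum and Thy1 without a read, and their part in the results below was not tested. The 4 endothelial markers summed to 0.681 to 3.98 CPM, with Cdh5 lower in CD24+ cells.

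Sequences show what these counts rest on. Each read was a 47-base exact match to the genome, so near-identical heavy chains were separated only by bases such as the following. The first line is the most counted coding read of H2-K1, in exon 4 (mm9, chr17:34134450-34134496, minus strand), and the second is the closest stretch of H2-D1 (mm9, chr17:35402736-35402782, plus strand). Capitals mark the 7 bases at which they differ.
H2-K1: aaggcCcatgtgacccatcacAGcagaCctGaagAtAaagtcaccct
H2-D1: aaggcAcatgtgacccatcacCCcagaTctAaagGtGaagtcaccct
Counted from 1 at the 5′ end, from H2-K1 to H2-D1, the differences are C6A, A22C, G23C, C28T, G31A, A35G and A37G. The H2-K1 read was seen 20, 32 and 23 times in the CD24- libraries and 42, 68 and 78 times in the CD24+ libraries. The H2-D1 read was seen 20, 29 and 23 times and 24, 44 and 81 times, and its deposited annotation was LOC547349, for which RefSeq lists H2-K1 as a synonym. The annotation of a class I read is therefore uncertain among near-identical genes.

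Reads of 3 other members are shown because their counting matters below. They are the most counted coding reads of B2m (mm9, chr2:121976685-121976731), Tap2 (mm9, chr17:34346041-34346087) and Nlrc5 (mm9, chr8:97000530-97000576), all plus strand.
B2m: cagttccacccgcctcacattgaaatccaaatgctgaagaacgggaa
Tap2: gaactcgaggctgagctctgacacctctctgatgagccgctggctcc
Nlrc5: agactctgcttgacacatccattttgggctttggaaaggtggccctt
The B2m read was counted 61, 59 and 40 times in CD24- and 64, 149 and 210 times in CD24+ libraries. The Tap2 read was counted 1, 1 and 0 times against 6, 10 and 16 times. The Nlrc5 read was counted once in each CD24+ library and in no CD24- library, and it carried no deposited annotation.

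Of the 9 annotated members, 7 were higher and 1 was lower in CD24+ cells by edgeR's quasi-likelihood test (Benjamini-Hochberg adjusted p below 0.05), and 1 was not called. Over all 11125 tested genes, 46.1% were called, with 23.8% higher and 22.3% lower. The median log2 fold change, CD24+ over CD24-, was 0.41 over the 9 members and 0.02 over all tested genes. The same 8 members did not overlap between groups in CPM, where 57.3% of tested genes did not (29.7% higher and 27.6% lower in CD24+). CD24+ replicate 1, the library with the fewest reads, was the highest of all for 6 members (H2-K1, H2-D1, B2m, Tap2, Tapbp and Erap1). Without it 6 of the 9 were called, 5 of them higher, beside 4700 of 11284 tested genes in that fit (2381 higher and 2319 lower). With each distinct sequence counted once per library, which discards repeated reads, 4 of the 9 were called, 3 higher and 1 lower, where 33.4% of 11078 tested genes were called (19.4% higher and 14% lower).

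**Figure D1:**
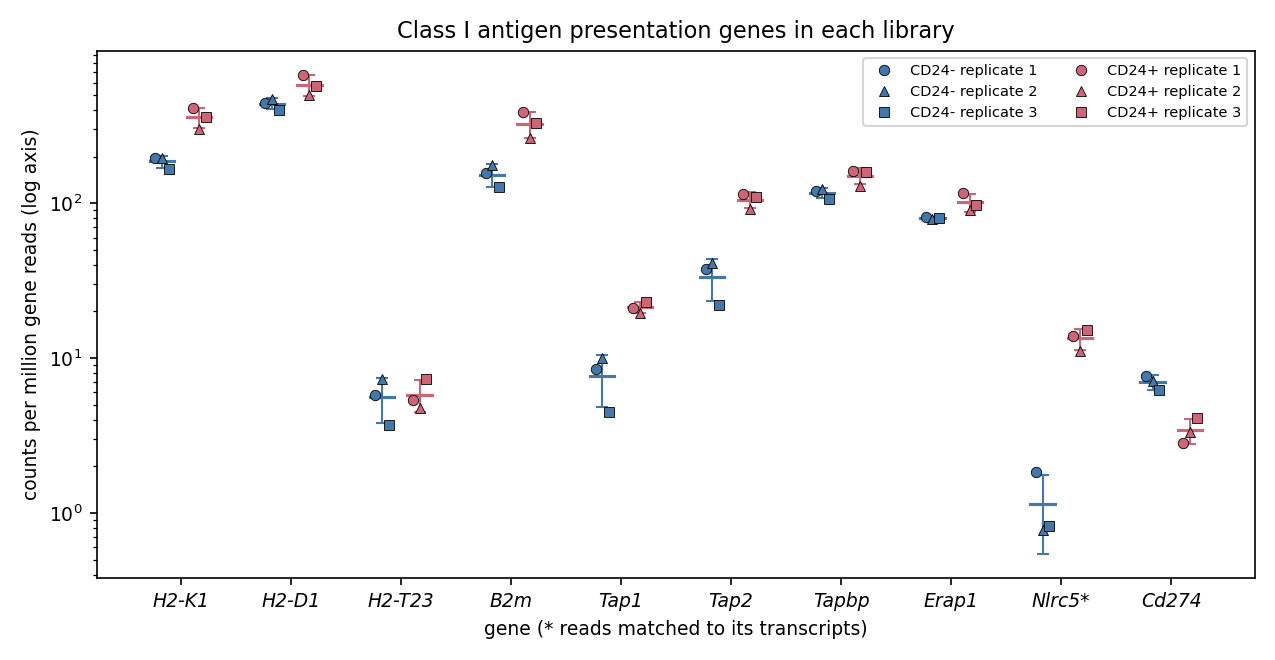
CPM on a log axis for the 10 members, with 1 point per library, a bar at the mean of 3 libraries and whiskers of 1 SD. The CD24+ points lie above all CD24- points for H2-K1, H2-D1, B2m, Tap1, Tap2, Tapbp, Erap1 and Nlrc5, below them for Cd274, and among them for H2-T23.

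H2-K1 and H2-D1 are the classical heavy chains, which present peptides to CD8 T cells. H2-K1 stood at 195, 196 and 167 CPM in the CD24- libraries and at 410, 303 and 362 CPM in the CD24+ libraries. The lowest CD24+ library was well above the highest CD24- library, and the mean rose from 186 ± 16.2 to 358 ± 53.6 CPM (SD, n = 3). The log2 fold change was 0.94 (SE 0.116, edgeR adjusted p = 9.52e-05). The call was lost with each distinct sequence counted once, at 0.14 (SE 0.147, edgeR adjusted p = 0.508).

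H2-D1 was the most counted member, at 446, 471 and 402 CPM in CD24- and 675, 501 and 573 CPM in CD24+ libraries. The groups did not overlap, but the margin between the nearest libraries was small against the spread within CD24+ (log2 fold change 0.41, SE 0.113, edgeR adjusted p = 0.0144). On the median coverage of the transcript, the estimate built on the steps of the study, the call was lost (0.35, limma adjusted p = 0.0609). With each distinct sequence counted once, the direction turned and H2-D1 was not called (-0.16, SE 0.188, edgeR adjusted p = 0.564).

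The ratio of H2-K1 to H2-D1 reads varied little within a group, as seen after the values were known. It was 0.437, 0.416 and 0.416 in CD24- and 0.608, 0.605 and 0.631 in CD24+ libraries, a 1.45-fold difference between means. On reads that match transcripts of a single gene, the ratio was 0.294, 0.295 and 0.271 against 0.427, 0.42 and 0.438. The 2 groups did not overlap in either count (two-sided exact permutation p = 0.1, the smallest that 3 against 3 allows).

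H2-T23, which encodes the non-classical heavy chain Qa-1, an inhibitory ligand of NK cells, was not called. Its CPM were 5.79, 7.30 and 3.72 in CD24- and 5.35, 4.75 and 7.34 in CD24+ libraries, so the groups overlapped. The log2 fold change was 0.06 with a 95% confidence interval of -0.53 to 0.65 (edgeR adjusted p = 0.872), and its sign turned under several alternatives, among them the count on reads of a single gene (-0.13). These counts came from few reads, 33 to 140 per library. Most windows of its exon 4, 116 of the 117 that held a read, were shared in sequence with other genes.

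With the reads of all 17 class I annotations summed to a single feature, the family stood at 694, 722 and 611 CPM in CD24- and 1160, 860 and 1009 CPM in CD24+ libraries. The groups did not overlap, and the log2 fold change was 0.58 (SE 0.116, edgeR adjusted p = 0.00232). With each distinct sequence counted once per library, it was 0.06 and not called (edgeR adjusted p = 0.789). This sum does not depend on how reads were divided among family members that carry an H2 symbol. The annotation LOC547349 lay outside this sum, though 9033 reads on the H2-D1 transcript carried it. It was higher in CD24+ cells, from 126 ± 13.3 to 171 ± 26.1 CPM (log2 fold change 0.43, edgeR adjusted p = 0.0140), which is not a measurement separate from the heavy chains.

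B2m encodes beta-2-microglobulin, the light chain that every class I heavy chain needs to reach the surface. It stood at 156, 177 and 126 CPM in CD24- and 388, 262 and 330 CPM in CD24+ libraries. All CD24+ libraries were higher, and the mean rose 2.14-fold, from 153 ± 25.4 to 327 ± 62.8 CPM (SD, n = 3). The log2 fold change was 1.09 (SE 0.153, edgeR adjusted p = 2.39e-04). The call was lost with each distinct sequence counted once, at 0.20 (SE 0.223, edgeR adjusted p = 0.523). Of the reads that match its transcript, 55.0% were annotated B2m and 45.0% Patl2, a gene of the opposite strand that spans the B2m locus in GENCODE M21. No 47-base window of the B2m exons that held a read was shared with a transcript of another gene. The Patl2 annotation went from 134 ± 16.4 to 282 ± 54.0 CPM (log2 fold change 1.07, edgeR adjusted p = 1.49e-04). Most of its reads were these same B2m transcript reads, 1243 of 1294 in CD24- replicate 1 and 5144 of 5386 in CD24+ replicate 3. Its change is therefore not a separate measurement.

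The ratio of B2m to the summed H2-K1 and H2-D1 reads, also chosen after the values were seen, was 0.242, 0.265 and 0.222 in CD24- and 0.357, 0.326 and 0.353 in CD24+ libraries. That count leaves out the B2m reads annotated Patl2. On reads that match transcripts of a single gene, the ratio was 0.42, 0.45 and 0.396 against 0.594, 0.556 and 0.599. The groups did not overlap in either count (two-sided exact permutation p = 0.1, the smallest possible).

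Tap1 and Tap2 are the subunits of the peptide transporter. Their fold changes were above those of the heavy chains among the members, a difference that was not tested. On median coverage with an added constant of 10, Tap1 was at 0.37, below the 0.65 of H2-K1. Tap1 stood at 8.53, 9.96 and 4.51 CPM in CD24- and 21.1, 19.7 and 22.9 CPM in CD24+ libraries. The CD24+ plates were close together and all above the CD24- plates, of which replicate 3 was the lowest. Its log2 fold change was 1.46 (SE 0.223, edgeR adjusted p = 4.28e-04).

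Tap2 stood at 37.4, 41.2 and 22.1 CPM in CD24- and 115, 91.2 and 110 CPM in CD24+ libraries. Its log2 fold change of 1.64 (SE 0.190, edgeR adjusted p = 6.19e-05) was the largest of the 9 annotated members and lay at percentile 94 of all tested genes. On median coverage with an added constant of 10 it was 0.88 (limma adjusted p = 0.0033), below the 1.00 of B2m. CD24- replicate 3 was the lowest library for both subunits, and the ratio of Tap1 to Tap2 reads did not separate the groups, at 0.228, 0.242 and 0.204 against 0.184, 0.216 and 0.208 (two-sided exact permutation p = 0.3).

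Tapbp encodes tapasin, which bridges the transporter and the empty class I molecule. It stood at 119, 123 and 107 CPM in CD24- and 161, 129 and 159 CPM in CD24+ libraries. The groups did not overlap, though CD24+ replicate 2 was close to the CD24- plates, and the log2 fold change was 0.36 (SE 0.102, edgeR adjusted p = 0.0148). The call was lost without CD24+ replicate 1 or 3 (log2 fold change 0.30 in both, edgeR adjusted p = 0.0533 and 0.0750). It was also lost with each distinct sequence counted once, at 0.17 (SE 0.107, edgeR adjusted p = 0.254).

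Erap1, which trims peptides to the length that class I molecules bind, stood at 81.1, 79.5 and 80.3 CPM in CD24- and 116, 89.9 and 97.5 CPM in CD24+ libraries. The CD24- plates were almost equal, and all CD24+ plates were higher, with a log2 fold change of 0.33 (SE 0.099, edgeR adjusted p = 0.0214). It fell to 0.22 (edgeR adjusted p = 0.0556) without CD24+ replicate 1, the highest library and the shallowest, and the call was also lost without CD24- replicate 1 or 2 or CD24+ replicate 3 (0.32 to 0.34, edgeR adjusted p = 0.0534 to 0.0669).

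Cd274 encodes PD-L1, which inhibits T cells through the receptor PD-1, and was the only member lower in CD24+ cells. It stood at 7.69, 7.11 and 6.20 CPM in CD24- and 2.83, 3.33 and 4.09 CPM in CD24+ libraries. The groups did not overlap, and the level in CD24+ cells was 0.488 of that in CD24- cells. On the log2 scale it changed by -0.99 (SE 0.201, edgeR adjusted p = 0.00247), at percentile 5.51 of all tested genes. These values rest on 18 to 78 reads per library.

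Nlrc5, the class I coactivator, was counted from reads that match GENCODE M21 transcripts of that gene alone. It had 17, 8 and 7 such reads in the CD24- libraries and 88, 192 and 284 in the CD24+ libraries. In CPM of the reads counted this way, these were 1.84, 0.777 and 0.821 against 13.9, 11.1 and 15.1, with the lowest CD24+ library well above the highest CD24- library. This is a log2 fold change of 3.53 (SE 0.290, edgeR adjusted p = 5.41e-06), the largest of the 10 members. In this count 45.6% of 12116 tested genes were called, with 23.9% higher and 21.7% lower, and 56.7% did not overlap between groups (29.5% higher and 27.1% lower).

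The deposited files held part of the Nlrc5 signal under a RefSeq accession of the gene in place of its symbol. That annotation had 2, 1 and 1 reads in CD24- and 27, 49 and 62 reads in CD24+ libraries, with a log2 fold change of 4.48 (SE 0.433, edgeR adjusted p = 1.73e-05). Of 576 reads that match its representative transcript, 70.1% had no deposited annotation, 22.2% carried the accession and 7.64% a repeat annotation. The reads were thinly spread, with a read on 9.84% of the 47-base windows that lie within its exons.

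On reads of a single gene, the other members gave similar values to the deposited annotation. H2-K1 differed by 1.02 on the log2 scale (SE 0.126), H2-D1 by 0.45 (SE 0.116), B2m by 1.06 (SE 0.144), Tap1 by 1.41 (SE 0.219) and Tap2 by 1.64 (SE 0.193), in the same direction as above. Tapbp differed by 0.38, Erap1 by 0.33 and Cd274 by -0.95, and all 8 were called again. With each distinct sequence counted once per library, H2-K1, B2m and Tapbp were no longer called and H2-D1 turned, as given above. Tap1 (1.51), Tap2 (1.34), Erap1 (0.29) and Cd274 (-0.82) kept their calls. A transcript has a fixed number of 47-base windows, which limits how many distinct sequences it can give. Of the members that lost the call or turned, B2m had a read on 82.1% of its windows, H2-D1 on 70.5%, Tapbp on 65.4% and H2-K1 on 42.4%. Of those that kept it, Erap1 had a read on 54.4%, Tap2 on 47.6%, Tap1 on 30.7% and Cd274 on 10.2%. The reads per window with a read did separate these members, at 57.8 for B2m, 52.3 for H2-K1, 52.2 for H2-D1 and 8.39 for Tapbp, against 3.76 for Tap2, 2.99 for Erap1, 2.11 for Cd274 and 1.81 for Tap1, over all 6 libraries. H2-T23, called in neither count, also turned (-0.043), with a read on 27.4% of its windows and 44.5 reads per window with a read. Reads were thus most repeated in the members that lost the call or turned. Counting each sequence once by construction removes most from the most repeated genes. The libraries also differed in distinct sequences. CD24+ replicates 2 and 3 held 10110972 and 10704601, CD24+ replicate 1 held 4671639 and the CD24- libraries held 6328549 to 6970728. Whether the removal of repeats, the number of windows or these differences led to the lost or turned calls was not tested. Whether the repeats were copies made in the library or separate molecules was not tested either.

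**Figure D2:**
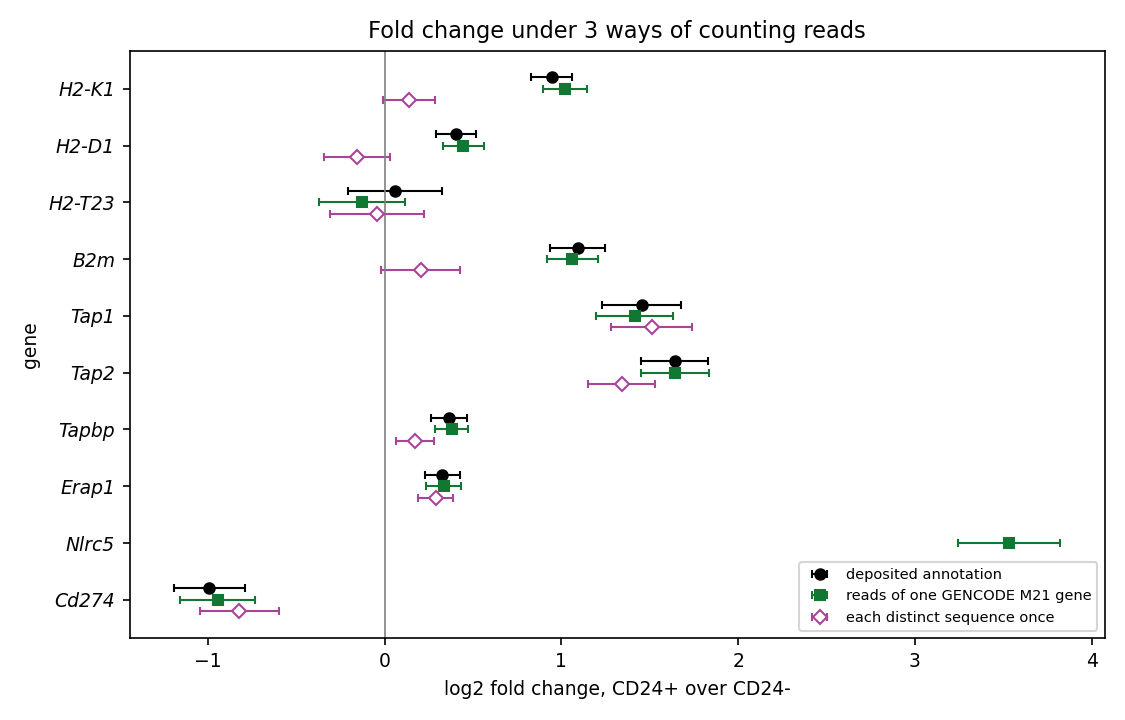
Log2 fold change, CD24+ over CD24-, of the members under 3 ways of counting, with bars of 1 SE. Nlrc5 has a value under 1 of them, the reads of a single gene. Circles (deposited annotation) and squares (reads of a single GENCODE M21 gene) lie close together, whereas diamonds (each distinct sequence once) fall toward 0 for H2-K1 (0.14), H2-D1 (-0.16) and B2m (0.20) and stay apart from 0 for Tap1 (1.51) and Tap2 (1.34).

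Levels were compared between genes per kilobase of transcript, as CPM of the reads of a single gene divided by kilobases (RPKM). In CD24+ cells B2m was the highest at 710 ± 131 RPKM (SD, n = 3), followed by H2-D1 at 347 ± 53.5 and H2-K1 at 193 ± 30.9. Tapbp stood at 60 ± 5.47, Tap2 at 23.5 ± 3.29 and Erap1 at 19.1 ± 2.41 RPKM, of which the last pair overlapped between libraries. Tap1 (7.96 ± 0.600), H2-T23 (3.06 ± 0.728), Nlrc5 (1.77 ± 0.271) and Cd274 (0.806 ± 0.116) were the lowest. In CD24- cells B2m stood at 340 ± 47.8 and H2-D1 at 255 ± 17.7 RPKM, with a lowest B2m library of 289 against a highest H2-D1 library of 270. Reads shared with other genes are in neither these values nor the totals they are scaled to, and the division of reads among the heavy chains remains uncertain. The transcript length was not reduced for shared stretches. In H2-D1 exon 4, 146 of the 230 windows were shared, whereas no window of B2m was. This lowers H2-D1 against B2m, so their order in CD24- cells is not settled by these values. Stretches without a read were not taken off the length either. A read lay on 42.4% of the H2-K1 windows and on 70.5% of those of H2-D1. The order of H2-D1 and H2-K1 is therefore not settled by these values.

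The reach of exact-match reads along a transcript differed between exons. For H2-K1, no window of exon 1 held a read, 11.2% in exon 2 and 16.5% in exon 3 did, while 70.9% in exon 4, 24.3% in exon 5 and 72.8% in exon 8 did. For H2-D1 the shares were 47.3% and 43.0% in exons 2 and 3, and 100% in exons 4 and 5. Exons 2 and 3 encode the peptide-binding domains, where class I alleles differ most between mouse strains, but exon 5 of H2-K1, which does not, was thinly reached too. The reference genome comes from C57BL/6J mice and the cells from FVB/N mice, and an exact match drops any read with a differing base, but the part of strain differences in these gaps was not tested. The direction was the same along H2-K1, with CPM ratios of CD24+ over CD24- of 1.94, 1.67, 1.76, 2.44 and 2.22 in exons 2, 3, 4, 5 and 8. Reads shared with other genes are included in these exon shares and ratios. In exon 4, 82 of the 163 H2-K1 windows with a read were shared, and 146 of the 230 of H2-D1.

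**Figure D3:**
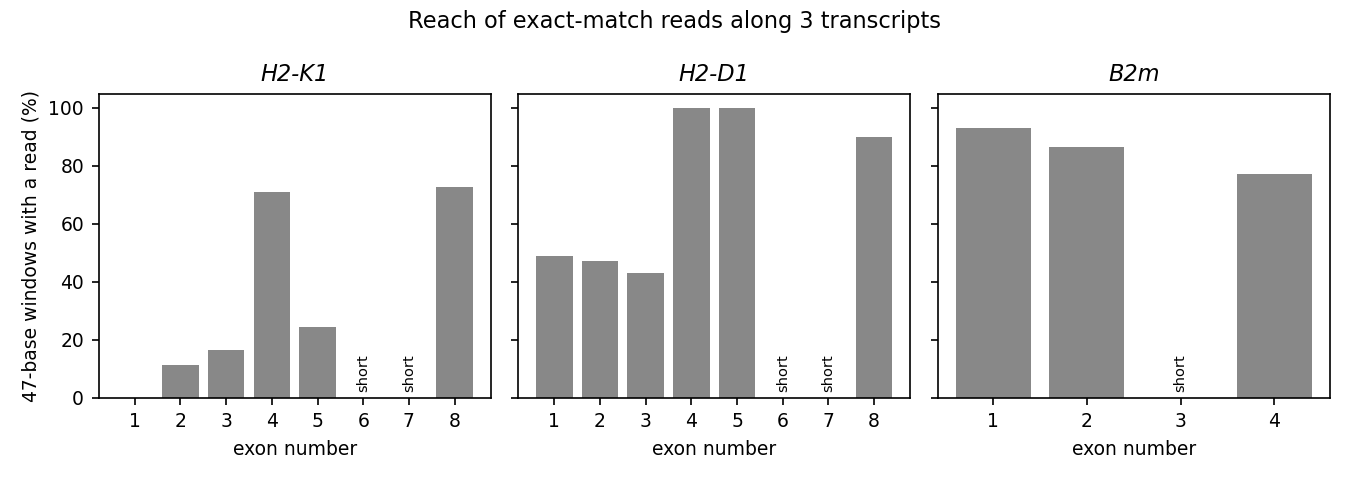
Share of the 47-base windows within each exon that held a read in any of the 6 libraries, for H2-K1, H2-D1 and B2m. Windows shared in sequence with other genes are included. Exons marked short are under 47 bases and hold no window. H2-K1 had no read in exon 1 and reached 72.8% in exon 8, H2-D1 reached 100% in exons 4 and 5, and B2m had at least 77.3% in every exon with windows.

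Upstream sequence is shown for H2-K1 and B2m, since both were higher and their promoters hold several of the motifs searched. The stretches run to the RefSeq start (GRCm38.p6, H2-K1 at chr17:34000348-34000597, minus strand, and B2m at chr2:122147437-122147685, plus strand). Capitals mark AANNGAAA (a core bound by interferon regulatory factors), TGACG (part of the cyclic AMP response element) and GGGNNTTCC (a kappa B form), on either strand.
H2-K1: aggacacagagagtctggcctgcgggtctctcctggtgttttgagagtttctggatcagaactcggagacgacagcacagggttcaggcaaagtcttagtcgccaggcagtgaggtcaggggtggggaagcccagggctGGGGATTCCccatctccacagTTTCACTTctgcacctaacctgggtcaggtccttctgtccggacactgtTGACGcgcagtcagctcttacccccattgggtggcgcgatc
B2m: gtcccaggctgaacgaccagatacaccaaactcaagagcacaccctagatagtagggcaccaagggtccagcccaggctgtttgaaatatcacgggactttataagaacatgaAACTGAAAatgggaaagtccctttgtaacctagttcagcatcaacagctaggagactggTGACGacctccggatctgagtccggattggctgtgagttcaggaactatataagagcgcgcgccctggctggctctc
Over the 250 bases before the start, 8 members had a RefSeq entry. AANNGAAA was found in 5 of them (H2-K1, H2-D1, H2-T23, B2m and Cd274), against 21.3% of all 32851 promoters. TGACG was found in 4 (H2-K1, H2-D1, B2m and Tap1), against 17.8%, and GGGNNTTCC in 2 (H2-K1 and H2-D1), against 4.98%. TTCNNNGAA was also searched and was found in no member, against 7.02% of all promoters. The RefSeq start can differ from that of the GENCODE M21 transcript used above. The stretches searched for H2-D1 and Erap1 lie within exon 1 of that transcript, and those for H2-T23 and Tapbp lie partly within it. In the H2-K1 promoter the kappa B form, the interferon core and TGACG begin 111, 90 and 41 bases before the start. The genes with AANNGAAA included one that was lower (Cd274) and one that was not called (H2-T23), and a match describes the letters alone.

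The rest of the pathway was described from 5 lists. In all, 69 of their 100 genes were tested, the rest having too few or no reads under their symbol, 28 were higher and 8 lower, and the median log2 fold change was 0.21 against 0.02 over all tested genes. Without the members, 21 of 60 were higher and 7 lower, beside 23.8% and 22.3% of all tested genes. With each distinct sequence counted once, 23 of 68 listed genes were called, 16 higher and 7 lower, members included. In that count 33.4% of 11078 tested genes were called, with 19.4% higher and 14% lower.

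Of 31 listed heavy chains and class I-like genes, 11 were tested, 6 were higher and none was lower (median log2 fold change 0.41). The shares over all tested genes were 23.8% higher and 22.3% lower. Fcgrt, the neonatal Fc receptor, which pairs with beta-2-microglobulin and carries IgG, rose most, from 0.948, 1.52 and 0.789 to 8.34, 6.67 and 9.80 CPM (log2 fold change 2.90, SE 0.284, edgeR adjusted p = 1.91e-05). H2-Bl (1.03), H2-T10 (0.67) and H2-T22 (0.59) were higher too, at means of 5.64 to 15.6 CPM in CD24+ cells. The genes H2-M3 (0.29, edgeR adjusted p = 0.117), Mr1 (0.40, edgeR adjusted p = 0.146) and Hfe (0.40, edgeR adjusted p = 0.138), along with H2-T24 (0.07, edgeR adjusted p = 0.897), were not called.

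Of 14 genes of the loading complex and the chaperones of the endoplasmic reticulum, 10 were higher and none was lower (median 0.37). This compares with 23.8% higher and 22.3% lower of all tested genes, and 5 of the 10 were members. The others that rose were Pdia3 (0.38), a disulfide isomerase of the loading complex, the tapasin homolog Tapbpl (0.48) and the translocon subunits Sec61a1 (0.36), Sec61b (0.72) and Sec61g (0.63). The general chaperones were not called, with log2 fold changes of 0.19 for Hspa5 (edgeR adjusted p = 0.139), -0.13 for Canx (edgeR adjusted p = 0.181) and -0.09 for Calr (edgeR adjusted p = 0.364), and neither was the oxidase Ero1l (0.23, edgeR adjusted p = 0.150).

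The immunoproteasome subunits were higher in CD24+ cells, and Psmb8 had the largest rise of the 69 tested genes. Psmb8, which lies between Tap1 and Tap2 in the MHC, stood at 6.95, 8.44 and 5.19 CPM in CD24- and 62.7, 53.7 and 64.3 CPM in CD24+ libraries. Every CD24+ library was far above every CD24- library (log2 fold change 3.12, SE 0.158, edgeR adjusted p = 2.20e-07). Psmb9, whose start adjoins that of Tap1, went from 2.53, 2.56 and 1.69 to 14.5, 12.9 and 15 CPM (log2 fold change 2.63, SE 0.194, edgeR adjusted p = 2.57e-06). Psmb10, which lies outside the MHC, went from 26.7 ± 1.29 to 38.5 ± 4.0 CPM (log2 fold change 0.52, edgeR adjusted p = 0.00298). The proteasome activator subunit Psme2 was higher by 0.34 (edgeR adjusted p = 0.0428), whereas its partner Psme1 was at -0.20 (edgeR adjusted p = 0.163).

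Of the peptidases on the same list, Tpp2 (-0.43), Lnpep (-0.41) and Blmh (-0.26) were lower in CD24+ cells. Thop1 (-0.23), Lap3 (0.16), Npepps (0.00) and Psme3 (-0.12), an activator of the standard proteasome, were not called. The list as a whole thus had 4 of 12 genes higher and 3 lower, with a median of -0.06. The shares over all tested genes were 23.8% higher and 22.3% lower.

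Among 19 tested genes of class I transcription and interferon input, 4 were higher and 1 was lower (median 0.09). Of all tested genes, 23.8% were higher and 22.3% lower. Ifngr1, the ligand-binding chain of the interferon gamma receptor, stood at 21.7, 16.7 and 21.9 CPM in CD24- and 61.1, 48.8 and 60.1 CPM in CD24+ libraries (log2 fold change 1.49, SE 0.135, edgeR adjusted p = 1.07e-05). Its partner chain Ifngr2 was higher by 0.91 (edgeR adjusted p = 0.00125) and the transcription factor Irf1 by 0.74 (edgeR adjusted p = 1.32e-04). Creb1 was at the threshold (0.20, edgeR adjusted p = 0.0498). The methyltransferase Ezh2 was lower (-0.54, edgeR adjusted p = 0.00118). The abundant genes Nfkb1 (0.09, edgeR adjusted p = 0.418) and Jak1 (-0.15, edgeR adjusted p = 0.132) were not called either.

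Among 13 tested ligands of T cells and NK cells, 4 were higher and 4 lower, with a median of 0.01. Of all tested genes, 23.8% were higher and 22.3% lower. Pvrl2, the nectin that binds the receptors DNAM-1 and TIGIT, rose from 24.5, 26.7 and 17.8 to 182, 123 and 168 CPM (log2 fold change 2.76, SE 0.177, edgeR adjusted p = 1.01e-06). Pvr, a ligand of the same receptors, fell from 122, 125 and 146 to 69.1, 44.1 and 55.0 CPM (log2 fold change -1.24, SE 0.145, edgeR adjusted p = 6.63e-05). The costimulatory ligand Icosl fell from 3.57 ± 0.523 to 0.694 ± 0.225 CPM (log2 fold change -2.48, edgeR adjusted p = 8.33e-05), and Cd276 (B7-H3) from 182 ± 6.74 to 109 ± 6.89 CPM (-0.74, edgeR adjusted p = 3.56e-05). Cd274 was the fourth that fell. The death receptor Fas (1.63), the galectin Lgals9 (0.52) and the NKG2D ligand Raet1a (0.28) were higher.

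**Figure D4:**
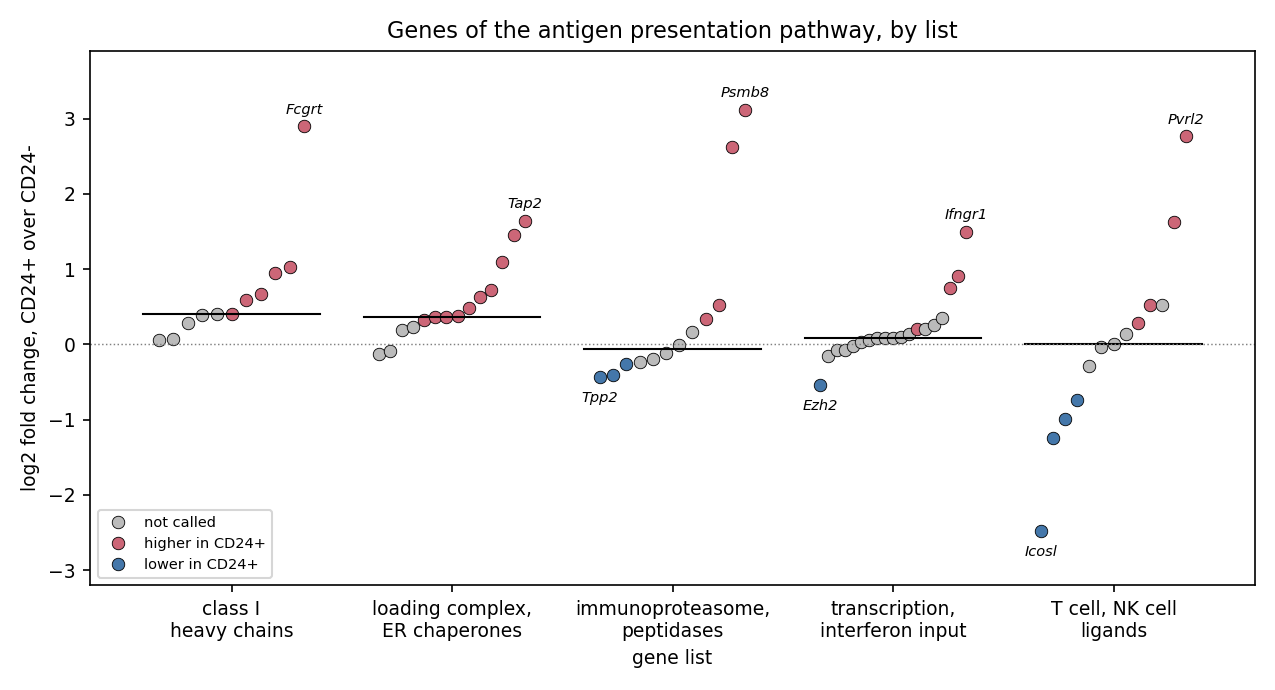
Log2 fold change, CD24+ over CD24-, of the 69 tested genes by list, with 1 point per gene in order of its value and a line at the median of each list. The heavy chain and loading complex lists hold no called decrease, and the labelled extremes are Fcgrt (2.90), Tap2 (1.64), Psmb8 (3.12), Tpp2 (-0.43), Ifngr1 (1.49), Ezh2 (-0.54), Pvrl2 (2.76) and Icosl (-2.48).

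Counts under the deposited symbols of MHC class II, which presents peptides to CD4 T cells, were at or near 0. The class II list of 7 genes summed to at most 1.10 CPM in any library, with no read for H2-Aa, H2-Ab1 and H2-DMb1, and Ciita, the class II counterpart of Nlrc5, had 1 to 7 reads per library. None of the 7 reached a mean of 1 CPM, so none is set beside the class I changes. No count by sequence is given for these genes. As for Nlrc5, reads without the symbol or lost to the exact match would be missed.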

How the data were processed

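The data are messenger RNA reads of 3 CD24- and 3 CD24+ plates. The authors trimmed 51-base reads by 2 nt at each end, collapsed identical reads, mapped them by exact match (mm9, per the submitters' processing notes; mapper and annotation source: not given in the sources used here), gave each 1 annotation and deposited the count of every sequence, not normalized and without strand. An exact match misses reads over most exon junctions and over variants. Here the counts were summed per annotation, and CPM are counts scaled to the gene reads of a library (TMM factors of 0.979 to 1.01). Reads of repeats (7.53% to 10.2% of a library), small RNA (0.380% to 0.505%) or no annotation (16.9% to 20.2%) were left out. Genes passing filterByExpr were tested with edgeR 4.0.16 in R 4.3.3 (TMM, quasi-likelihood F test, Benjamini-Hochberg adjustment over all tested genes, threshold 0.05). The deposited sequences were also matched to GENCODE M21 transcripts (GRCm38), and reads of a single gene were counted. Simulated data were tested first, and of 200 genes changed 4-fold among 11065, 100% were recovered, with 0.11% false calls. Each of the annotated members changed by less than 4-fold, and recovery of changes of their size was not tested.

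Members and lists were chosen with earlier results of these data known. Named are all members, the called gene with the largest rise and fall and the 2 most abundant of each list, heavy chains at a mean of 1 CPM or more, Cd24a and markers. Other list genes, and the ratios between members, were named after their values were seen. No column came from another series. The alternatives were DESeq2 1.42.0, other filters and scaling, distinct sequences, reads of a single gene, the study's median coverage with limma 3.58.1, thinning, a replicate block and leaving out each library. Alternatives for Nlrc5 were chosen after seeing the data. Libraries of a group differed by more than sampling noise. The chi-square divided by its degrees of freedom was 1.75 for CD24- replicates 1 and 2. It was 9.69 to 15.9 for every other pair within a group, so CD24- replicate 3 stood apart from the other CD24- libraries.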

Additional observations from a re-analysis of the deposited data

Results flagged for a closer look

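The Nlrc5 signal lay mostly outside the deposited gene annotations: the log2 fold change of reads matched to its transcripts was 3.53, with 17, 8 and 7 reads in the CD24- and 88, 192 and 284 reads in the CD24+ libraries. It is listed because 70.1% of the reads on its representative transcript had no deposited annotation.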

How the results depend on the processing

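With each distinct sequence counted once, 4 of 9 members and 23 of 68 list genes were called (3695 of 11078 genes, 33.4%), and the class I family (0.061, edgeR adjusted p = 0.789), H2-K1 (0.14), B2m (0.20) and Tapbp (0.17) lost their calls while H2-D1 turned to -0.16 and H2-T23 to -0.043. On the study's median coverage, limma gave H2-D1 0.35 (adjusted p = 0.0609) and H2-T23 -0.031, and its added constant of 10 shrinks low genes, with Tap1 at 0.37, Tap2 at 0.88, Cd274 at -0.17 and Cd24a at 1.38. H2-T23, never called, was also at -0.13 on reads of a single gene and -0.14 after thinning. Leaving out each library, log2 fold changes ranged from 0.30 to 0.45 for Tapbp, 0.22 to 0.40 for Erap1 and -0.19 to 0.30 for H2-T23, members called from 6 to 8, list genes from 28 to 39 and all genes from 4069 to 5358. Same-numbered libraries did not deviate together (correlations 0.0132, -0.271 and -0.323), so the numbers do not pair them. With the replicate block, 4493 of 11125 genes, 8 members and 31 list genes were called, no call of a member changed, Nlrc5 was at 3.56, Cd24a at 2.94 and the family at 0.57. Of the fold changes under alternatives, 153 kept direction and side of the threshold, 11 lost the call and 7 changed sign. The changes of sign were those of H2-D1 and H2-T23. The filter of at least 1 CPM in 3 libraries kept the same 11125 genes, so its values, counted as kept, could not differ. Of the counts of calls, 43 stayed within 1.5 times the reported count and 2 did not. Low read numbers limit H2-T23, Cd274 and Nlrc5.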
